A study of Homo sapiens with 8 samples.

Results

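The replication-dependent histone genes encode the H1, H2A, H2B, H3 and H4 proteins that package DNA newly made in S phase. They are small genes mostly without introns, they lie in clusters as many near copies, and their mRNAs end in a stem-loop instead of a poly(A) tail. H2A and H2B genes often stand head to head around a shared promoter, and the factor NPAT, switched on by cyclin E and CDK2, drives the whole set. Occupancy of these genes by ARID1A, the DNA-binding subunit of the SWI/SNF remodelling complex called BAF, was read from peak lists of Flag ChIP-seq. The members were the protein-coding RefSeq genes of GRCh38 with the symbols H1-1 to H1-6, H2AC, H2BC, H3C or H4C followed by a number, 69 of 20037 protein-coding genes. They comprised 6 H1, 17 H2A, 18 H2B, 13 H3 and 15 H4 genes. Of these, 55 lay on chromosome 6, 13 on chromosome 1 and 1, H4C16, on chromosome 12.

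All libraries came from Huh7, an established hepatocellular carcinoma line, with ARID1A knocked out in every group and a Flag-tagged ARID1A then expressed stably from a lentivirus. In 3 groups of 2 libraries the cells carried the wild-type protein (WT), V2084D, or V2084D together with knockdown of the ubiquitin ligase STUB1. The introduced protein was overexpressed, per the labels, and nothing in them tells whether replicates were grown as separate cultures, so p-values measure only the spread between libraries, which may be technical. The WT lists held 27587 and 26515 peaks, the V2084D lists 6000 and 12384, and the knockdown lists 8904 and 6663. Read depth is unknown. Peak lists do not show whether the cells transcribe a gene. A member was counted with a peak when a peak lay within 1 kb of the gene, and a peak near several members was counted once among peaks. The fold enrichment of a peak and its −log10 q are the authors' values and were compared only within a list. The rank share of a peak is its position in its list sorted by −log10 q, as a percent of the list, so the strongest peak has the smallest share.

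The promoters below come from members that the lists set apart by peaks within 1 kb of the gene. The first 3 belong to members with a peak in all 6 lists and the last 3 to members without a peak in any list. Each run is the 200 bases before the RefSeq start on GRCh38.p14, the same assembly as hg38. Capitals mark the TATA box letters TATAAA, the CCAAT box letters CCAAT, the octamer ATTTGCAT bound by POU2F1, and the E2F letters TTTGGCGC and TTTCGCGC, on either strand. No capitals stand where none of these letters occur.
H4C14 (chr1:149832457-149832656, plus strand): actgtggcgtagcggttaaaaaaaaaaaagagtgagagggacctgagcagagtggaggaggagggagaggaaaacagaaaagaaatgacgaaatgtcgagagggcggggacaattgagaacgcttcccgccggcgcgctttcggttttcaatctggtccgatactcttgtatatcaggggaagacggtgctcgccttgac
H2BC26 (chr1:228457903-228458102, plus strand): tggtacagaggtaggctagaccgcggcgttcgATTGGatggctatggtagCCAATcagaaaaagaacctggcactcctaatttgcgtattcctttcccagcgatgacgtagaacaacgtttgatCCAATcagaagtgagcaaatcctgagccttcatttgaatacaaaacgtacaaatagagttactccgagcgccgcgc
H2AC17 (chr6:27893186-27893385, minus strand): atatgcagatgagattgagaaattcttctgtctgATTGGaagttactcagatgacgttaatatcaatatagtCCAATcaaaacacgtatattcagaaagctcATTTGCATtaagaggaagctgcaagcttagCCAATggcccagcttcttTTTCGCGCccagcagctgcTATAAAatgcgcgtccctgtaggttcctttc
H2BC8 (chr6:26216689-26216888, minus strand): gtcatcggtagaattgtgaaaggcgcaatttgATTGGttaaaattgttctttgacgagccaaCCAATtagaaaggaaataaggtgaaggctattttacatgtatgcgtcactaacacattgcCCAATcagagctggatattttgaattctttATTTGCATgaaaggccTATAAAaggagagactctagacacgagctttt
H2BC10 (chr6:26272731-26272930, plus strand): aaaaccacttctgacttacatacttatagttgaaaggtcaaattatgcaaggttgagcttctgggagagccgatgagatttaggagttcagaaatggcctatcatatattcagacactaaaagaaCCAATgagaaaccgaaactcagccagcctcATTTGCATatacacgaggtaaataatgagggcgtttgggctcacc
H2BC1 (chr6:25726577-25726776, plus strand): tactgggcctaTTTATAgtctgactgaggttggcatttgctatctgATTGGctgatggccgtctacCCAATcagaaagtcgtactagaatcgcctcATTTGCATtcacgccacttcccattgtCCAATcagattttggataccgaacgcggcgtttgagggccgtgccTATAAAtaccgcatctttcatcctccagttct

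None of these kinds of letters fully separated the 3 promoters of members with peaks from the 3 of members without. All 3 of the latter are H2B genes, so peaks and histone type cannot be told apart in these promoters. The V2084D peaks counted for H2AC17 lay outside the printed stretch, beyond the far end of H2BC17. H4C14, with a peak in each list, holds none of these letters in its printed stretch, H2BC26 only the CCAAT box, and H2AC17 4 of the 5 kinds. H2BC8 and H2BC1, without a peak, hold the TATA box, the CCAAT box and the octamer, and H2BC10 the CCAAT box and the octamer. Over all members, 64 of 69 had a start in the RefSeq promoter table, with 66 separate windows of 300 bases (250 before and 50 after the start). CCAAT occurred in 84.8% of the member windows against 34.5% of the 21480 windows of all protein-coding genes. It stood in all 53 windows of H1, H2A, H2B and H3 genes and in 3 of 13 H4 windows. TATAAA occurred in 65.2% of member windows against 9.59% of all windows. The octamer occurred in 14 of 18 H2B and 11 of 16 H2A windows, 1 of 13 H3 windows and no H1 or H4 window, against 1.67% of all windows. Head-to-head H2A and H2B windows overlap, so their counts are not independent. The letters TTTCGCGC occurred in 12 of 66 member windows (0.712% of all windows), TTTGGCGC in none (0.805%), and the AP-1 letters TGACTCA, or TGAGTCA on the other strand, in none (4.01%).

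Member promoters were poorer in G and C than others, with a mean of 44.4% against 60.9%. Pooled over the histone types, the members with a WT peak in both lists and those without resembled each other in these letters. CCAAT stood in 31 of 39 windows of the former and 25 of 27 of the latter, TATAAA in 26 and 17, the octamer in 15 and 11, and TTTCGCGC in 6 and 6. Their mean G and C content was 45.5% and 42.8%, and the median number of CG dinucleotides was 13 and 11. Within H4, the only type where CCAAT varied, it stood in the windows of H4C6, H4C9 and H4C13, members without a peak in any list. The other H4 windows lacked it. Among them, H4C7 and H4C12 had no peak in any list, and the rest had WT peaks in both lists. A match of letters is a description of the window and does not show a bound factor.

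Wild-type ARID1A lay near many but far from all histone genes, and the clusters differed. In the WT lists 45 and 43 of the 69 members had a peak within 1 kb, and 41 had one in both (59.4%), beside 59.7% of all protein-coding genes. Every member on chromosome 1 and H4C16 on chromosome 12 had a WT peak in both lists, but only 27 of the 55 on chromosome 6 did. By protein, members with a peak in both WT lists numbered 2 of 6 for the linker histone H1, 12 of 17 for H2A, 10 of 18 for H2B, 7 of 13 for H3 and 10 of 15 for H4. Among the other protein-coding genes up to 3 kb long, which offer a window of similar size, 26.4% (495 of 1877) had a WT peak in both lists. The peaks near members numbered 49 and 43 in WT and formed 33 reproducible regions (peaks of both WT lists that overlapped by at least 1 bp), of which 18 lay within 1 kb of more than 1 member.

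The peaks near members were wider than the usual peak in WT and ranked above the middle of their lists. Their median length was 806 and 729 bp against 517 and 500 bp over all WT peaks, and their median fold enrichment was 5.34 and 5.33 against 4.55 and 4.37. In the mutant lists the widths and folds were nearer to those of all peaks, with median lengths of 472, 467.5, 465 and 460.5 bp against 391.5, 415, 447 and 410 bp.

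The strongest WT peaks among H4 genes lay at H4C14 and H4C15 in the chromosome 1 cluster from 149.8 to 149.9 Mb. At H4C14 the WT peaks had a fold of 12.8 and 15.4, with rank shares of 0.366% and 0.162%. Its V2084D peaks had 9.46 and 6.31, and its knockdown peaks 5.87 and 7.05. At H4C15 the WT peaks had 10.5 and 10.8, and the peaks within 1 kb of its start had 4.67 and 2.69 in V2084D and 4.66 and 4.60 with knockdown. Both genes thus had a peak at the start in all 6 lists. The RefSeq body of H4C15 spans 16753 bp, and in V2084D replicate 2 and knockdown replicate 1 the strongest peak along it (8.16 and 6.85) lay at H2AC19 and H3C15. The 300-base windows of H4C14 and H4C15 share 100% of their 31-base words, those of H3C14 and H3C15 98.5%, and those of H2AC18 and H2AC19 99.6%. How the authors placed reads that fit both copies is not given in the sources used here, so peaks at these 6 genes cannot be assigned to 1 copy with certainty.

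The strongest H2A and H2B peak was shared by H2AC25 and H2BC26, a head-to-head pair on chromosome 1 at 228.5 Mb with 229 bp between the starts. The WT region from 228456872 to 228459910 (hg38) covers both genes. The strongest peak near the pair had WT folds of 13 and 10.4 (rank shares 0.185% and 0.419%). The V2084D folds were 6.26 and 6.16, and the knockdown folds 7.77 and 5.72. It lay among the strongest 6.38% of the list in every library, and a peak overlapped the gap between both starts, at least in part, in all 6 lists. In V2084D replicate 1 and knockdown replicate 2 this peak ended inside the gap. No copy of this promoter was found among the other members.

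For H3 the strongest WT member was H3C15, whose best WT peaks, shared with H2AC19, had folds of 10.9 and 7.94. In V2084D its best peaks had 4.48 and 8.16, and with knockdown 6.85 and 4.69. For H1 it was H1-4 by the worse of both WT ranks (chromosome 6, WT region from 26155986 to 26157117), a linker histone gene, with WT folds of 9.87 and 6.63, V2084D folds of 5.92 and 8.25, and 5.55 in knockdown replicate 1 alone. H1-2, another linker histone gene, was stronger than H1-4 in WT replicate 2 (9.47) and weaker in WT replicate 1 (5.34). H4C16 had 5.98 and 5.64 in WT, 4.24 in V2084D replicate 2 and 3.67 in knockdown replicate 1, and no peak in the other lists.

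Only 3 of the 55 chromosome 6 members had a peak in all 6 lists, against 8 of 13 on chromosome 1. They were H4C3 and the head-to-head pair H2AC17 and H2BC17. H4C3 (WT region from 26103588 to 26104538) had WT folds of 7.29 and 8.95, V2084D folds of 5.33 and 4.37, and knockdown folds of 4.89 and 5.88. The best peak near H2AC17 and H2BC17 had WT folds of 9.18 and 5.96, V2084D folds of 4.32 and 4.18, and knockdown folds of 4.22 and 5.99. On chromosome 1 the members were H2BC18, H4C14, H3C14, H4C15, H2AC19, H3C15, H2AC25 and H2BC26, and 5 of these 8 are among the near-identical copies. H2BC18 counts through a peak 19153 to 19604 bp inside its RefSeq body, where FCGR1A also lies, and within 1 kb of its start it had peaks in both WT lists and V2084D replicate 2 alone. Counted within 1 kb of a listed start, 9 of 64 members had a peak in all lists, and H2BC18 was not among them. In total 11 of 69 members (15.9%) had a peak in all lists, beside 11.7% of all protein-coding genes, and 6 of 63 (9.52%) without the copies.

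Around H2AC17 and H2BC17 the lists differed in position. The WT region from 27892754 to 27893351, over H2AC17 and into the gap, overlapped a peak in both knockdown lists and in no V2084D list. The WT region from 27893453 to 27894869, over H2BC17, overlapped a peak in both V2084D lists and in no knockdown list. Each pattern thus held for 1 of 33 regions (3.03%), beside 2.46% and 2.70% of the other WT regions. At gene level no member had a peak in both lists of 1 mutant group and none in the other, 0 of 41 for each direction, beside 2.37% of genes with a WT peak for knockdown without V2084D and 3.04% for V2084D without knockdown.

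A total of 22 members (31.9%) had no peak within 1 kb in any list, beside 28.6% of all protein-coding genes and 64.1% of the other genes up to 3 kb. All 22 lay on chromosome 6. Among them were H2AC1, H2BC1 and H1-6, known as testis histone genes, and the linker histone genes H1-1 and H1-5. The run of most members without a peak in both WT lists went from H2BC8 to H2BC10, 10 neighbouring members over 57.2 kb (26216200 to 26273412), of which 8 had no peak in any list. H3C6 and H1-3, in the same run, had a peak in WT replicate 1 only, with folds of 2.88 and 3.91. Another run of 5 went from H2AC16 to H3C12, and a run of 3 over a longer span, 292 kb, from H2AC1 to H1-1. The flanking members were not empty, since H4C5 before the run of 10 had WT folds of 8.28 and 7.84 and H4C8 after it had 7.62 and 7.23.

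Head-to-head partners behaved alike in WT. Of 11 pairs of starts on opposite strands under 500 bp apart, 7 had a peak in both WT lists near both partners. In 4 neither partner had a peak in both WT lists, and in none did 1 partner alone, as windows of 1 kb around genes this close nearly coincide. Among these 4, H2BC13 and H2AC13 had a peak in WT replicate 1 but not in WT replicate 2 (fold 3.80). They also had a peak over their gap in knockdown replicate 1 (fold 3.84). Members without a listed start, such as H2AC12, could not enter a pair. A WT peak overlapped the gap between the starts, at least in part, in 7 and 6 of the 11 pairs. A mutant peak did so in 2 and 2 for V2084D and in 3 and 2 with knockdown.

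Most summits, the highest points of the peaks, lay within 500 bp of a member start in each list, and more of these lay inside the gene than before it. Of 176 peaks over all lists, 13 nearest to the members without a start in the promoter table (among them every H4C3 peak) were left out. In WT 32 of 48 and 32 of 40 peaks had the summit within 500 bp of the nearest listed start, and of these 27 and 25 lay downstream of it (84.4% and 78.1%). Over all WT peaks within 500 bp of a start of a protein-coding gene, 56.4% and 56.5% lay downstream. Each summit was assigned to the nearest start. At the 11 head-to-head pairs, with gaps of 193 to 247 bp, this leaves little room upstream, and its part in these shares was not tested. In V2084D 8 of 14 and 17 of 21 summits lay within 500 bp, 7 and 11 of them downstream (87.5% and 64.7%, beside 49.2% and 54.8% over all peaks). With knockdown 20 of 24 and 9 of 16 did, 15 and 7 of them downstream (75% and 77.8%, beside 49.1% and 48.7%). The median position in WT was 170.5 and 128.5 bp downstream. In WT the median ran from 62 bp downstream over 20 peaks nearest to H4 starts to 332.5 bp over 24 peaks nearest to H2B starts, with peaks of both WT lists pooled and no test.

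V2084D was set against WT to ask whether peaks at histone genes differ with the mutation. Fewer members had a peak in V2084D, as for genes in general, while most chromosome 1 members had one in both groups. Members with a peak numbered 18 and 29 in V2084D against 45 and 43 in WT, so the V2084D mean was 23.5 ± 7.78 (SD, n = 2) and that of WT was 44 ± 1.41 (SD, n = 2). The groups did not overlap, with differences of 14 to 27 members over the 4 pairs of libraries (two-sided exact permutation p = 0.333, adjusted p = 0.5). With 2 libraries against 2 this test has 6 arrangements and 0.333 is its smallest p, so no comparison here could pass 0.05. Members with a peak in both V2084D lists were 17 (24.6%), beside 18.6% of all protein-coding genes.

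On chromosome 1, 11 and 13 of the 13 members had a peak in V2084D, and on chromosome 6, 7 and 15 of 55, beside 23% and 38.4% of all protein-coding genes. Chromosome 1 held 10 of the 15 and 10 of the 24 peaks near members in V2084D, against 13 of 49 and 11 of 43 in WT. Without the 6 copies, 6 and 7 of the remaining 7 chromosome 1 members had a peak, but these members share peaks. In V2084D replicate 1, H2BC21, H2AC20 and H2AC21 had the same best peak, and so did H2AC25 and H2BC26. H2BC18 counted through the peak inside its body. Neither H2BC18 nor H2AC21 had a peak within 1 kb of its start in that list. The surroundings moved in the same direction. Peaks away from members from 145 to 150 Mb on chromosome 1 made up 0.341% and 0.355% of the WT lists and 0.683% and 0.460% of the V2084D lists, and from 225 to 230 Mb 0.486% and 0.517% against 2.0% and 1.62%. From 25 to 30 Mb on chromosome 6 they made up 0.388% and 0.392% in WT and 0.283% and 0.25% in V2084D. The part of these stretches in the difference between the clusters was not tested.

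Among the 41 members with a peak in both WT lists, 11 (26.8%) had no V2084D peak, beside 33.8% of all such genes. All 11 lay on chromosome 6. The members without a peak in any of the 4 mutant lists were 7 (17.1%, beside 23.1% of such genes), namely H4C2, H2AC6, H3C4, H2AC7, H2BC7, H2AC11 and H2BC15. H2AC6 had the strongest WT peak of them, with 9.14 and 11.1, shared with its head-to-head partner H2BC4. The summits of this WT peak lay inside H2BC4, 967 and 985 bp from its start. H2BC4 itself had a peak in V2084D replicate 1 (4.92) and knockdown replicate 2 (5.58). Their summits lay at nearly the same place, 922 and 974 bp from the H2BC4 start, and both peaks overlapped the WT region shared by the pair. They ended more than 1 kb from H2AC6, so H2AC6 counts here by the distance limit, not by loss of that region. H4C2 had 7.04 and 4.59 in WT. H2AC11 had 4.98 and 4.09, H2BC15 had 4.98 and 6.73, and H3C4, H2AC7 and H2BC7 shared a WT peak with 3.52 and 5.29. The absence of a peak at these genes means that the caller listed none there, not that the protein was absent.

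**Figure D1:**
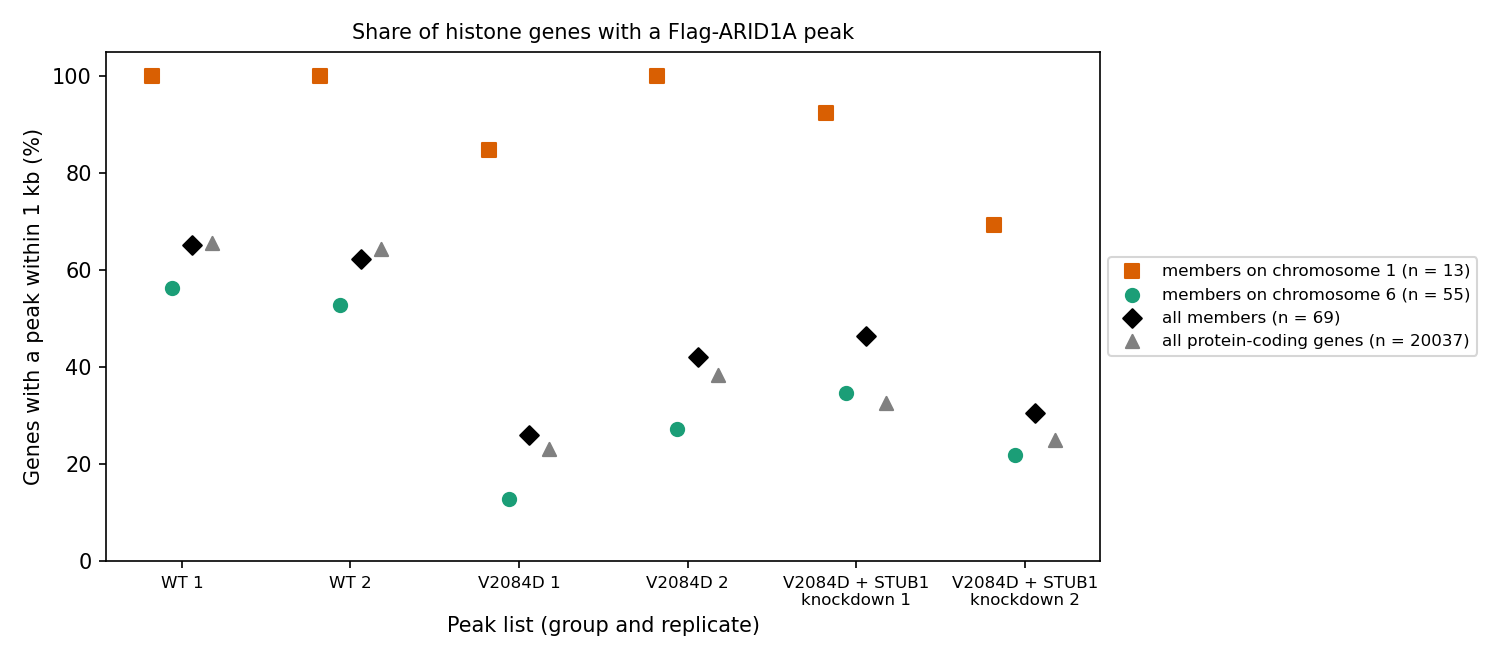
The vertical axis gives the share of genes with a peak within 1 kb (%) and the horizontal axis the 6 peak lists. Squares are the 13 members on chromosome 1, circles the 55 on chromosome 6, diamonds all 69 members and triangles all 20037 protein-coding genes. Squares lie above the other symbols in each list, and diamonds lie close to triangles in WT, at 65.2% and 62.3% against 65.6% and 64.4%.

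Relative to list length, peaks near members were somewhat more frequent in the mutant lists, and so were peaks near gene starts in general. Peaks with the summit within 500 bp of a start of any protein-coding gene made up 32.7% and 33.2% of the WT lists. In V2084D they made up 44.9% and 36.6%, and with knockdown 44.8% and 44.1%. Peaks near members made up 0.178% and 0.162% of the WT peaks (mean 0.170 ± 0.0109, SD, n = 2), 0.25% and 0.194% in V2084D (0.222 ± 0.0397, SD, n = 2) and 0.303% and 0.270% with knockdown (0.287 ± 0.0234, SD, n = 2). The 3 groups did not overlap. The difference from WT was 0.052 percentage points for V2084D and 0.117 for knockdown, and between both mutant groups it was 0.0648 (two-sided exact permutation p = 0.333 and adjusted p = 0.333 for each). Both differences from WT turned when only the strongest 6000 peaks of each list were used, to -0.0917 and -0.0583, and that of V2084D also turned with chromosome 6 members alone (-0.0259) and without the near-identical copies (-0.00339). The difference between the mutant groups turned with peaks of a fold of at least 5 (-0.0317).

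Of the 33 WT regions at members, V2084D peaks overlapped 12 and 20 (36.4% and 60.6%), against 27.7% and 46.8% of the 16124 other WT regions. The excess was 8.69 and 13.8 percentage points. The histone regions were strong in WT, with 14 of 33 among the strongest 2 of 10 bins of all WT regions, ordered by the worse rank of −log10 q in both WT lists. Other WT regions weighted to the same bins were overlapped at 40.6% and 61.4%, so at equal WT strength the difference was -4.23 and -0.842 percentage points. On chromosome 1, 7 of 11 regions overlapped a peak in both V2084D lists, and on chromosome 6, 4 of 21 (19.0%), beside 21.3% of the other WT regions. Those on chromosome 1 include every region at the near-identical copies and the region inside the body of H2BC18.

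**Figure D2:**
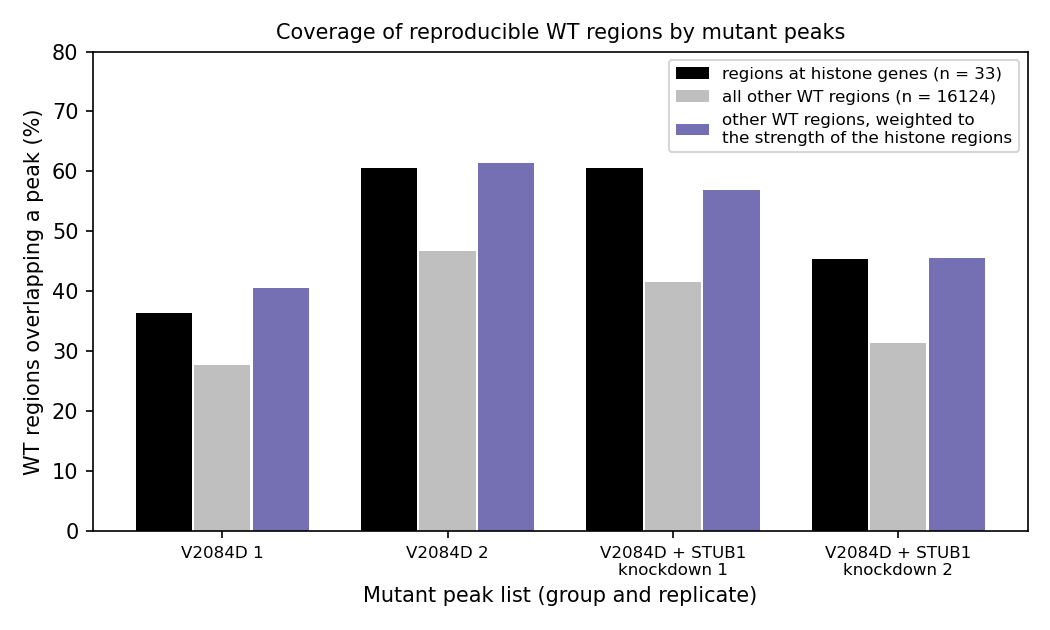
Bars give the share of WT regions that overlap a peak (%) for each of the 4 mutant lists, without error bars since each bar is 1 library. Black bars are the 33 regions at histone genes, grey bars the 16124 other regions, and violet bars the other regions weighted to the WT strength of the histone regions. Black bars exceed grey ones in each list, and lie within 4.23 percentage points of the violet ones.

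V2084D with knockdown was set against V2084D alone to ask whether its peaks differ when STUB1 is depleted. The number of members with a peak and the coverage of WT regions differed by less than the spread of libraries, while the share of peaks near members, given above, did not overlap between these groups. Members with a peak numbered 32 and 21 with knockdown (26.5 ± 7.78, SD, n = 2) against 18 and 29. The difference was 3 and ran from -8 to 14 over the pairs of libraries (two-sided exact permutation p = 0.667, adjusted p = 0.667). Against WT it was -17.5 and ran from -24 to -11 (p = 0.333 by the exact permutation test, adjusted to 0.5). Members with a peak in both knockdown lists were 19 (27.5%), beside 19.2% of all protein-coding genes, and 9 of the 41 with a WT peak had none with knockdown (22.0%, beside 39.1%).

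The clusters differed with knockdown too. On chromosome 1, 12 and 9 of the 13 members had a knockdown peak, and on chromosome 6, 19 and 12 of 55, beside 32.6% and 24.9% of all protein-coding genes. Without the 6 copies, 6 and 3 of the remaining 7 chromosome 1 members had one. As in V2084D, neighbouring members shared peaks, and H2BC18 counted in both knockdown lists through the peak inside its body. Peaks away from members made up 0.606% and 0.75% of the knockdown lists from 145 to 150 Mb on chromosome 1, 1.35% and 1.70% from 225 to 230 Mb, and 0.393% and 0.405% from 25 to 30 Mb on chromosome 6, and their part in these counts was not tested.

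Knockdown peaks overlapped 20 and 15 of the 33 WT regions at members (60.6% and 45.5%). The mean was 53.0% ± 10.7 (SD, n = 2) with knockdown and 48.5% ± 17.1 (SD, n = 2) without it. The difference was 4.55 percentage points, less than the spread, and ran from -15.2 to 24.2 over the pairs (two-sided exact permutation p = 1), and it turned to -7.58 without V2084D replicate 1 and to -3.03 without knockdown replicate 1. The excess over other WT regions was 19.1 and 14 percentage points, and 3.66 and -0.15 at equal WT strength. By type, H4 genes most often had a peak in both knockdown lists, 7 of 15 (46.7%, beside 19.2% of all protein-coding genes). In both V2084D lists 3 of 15 had one (20%, beside 18.6%). H4C1, H4C4, H4C5 and H4C8, all on chromosome 6, had a peak in both knockdown lists and in V2084D replicate 2 but not in V2084D replicate 1, which has the shortest list. The same held for H2AC18, H3C1 (which shares the H4C1 peak), H2BC12 and H2AC12. At H4C5 the folds were 8.28 and 7.84 in WT, 3.97 in V2084D replicate 2, and 3.91 and 5.27 with knockdown. At H4C8 they were 7.62 and 7.23, then 3.38, and then 4.47 and 4.43. At H4C4 they were 4.12 and 6.19, then 4.22, and then 4.96 and 3.65. H4C1 had its highest fold in V2084D replicate 2, with 6.13 and 6.1 in WT, then 7.996, and then 4.25 and 3.97.

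The non-histone genes inside the cluster spans and the genes that serve the histone genes gave further points of comparison. Of the 8 non-histone protein-coding genes within the spans, the 6 on chromosome 6 (SLC17A1, SLC17A2, SLC17A3 and SLC17A4, which encode solute transporters, TRIM38 and HFE) had no peak in any list. FCGR1A and LOC124904411, which overlap H2BC18 on chromosome 1, had one in all 6. Of 11 genes of replication-independent histone variants, 10 had a peak in both WT lists (90.9%, beside 59.7% of all protein-coding genes), 2 in both V2084D lists (18.2%, beside 18.6%) and 4 in both knockdown lists (36.4%, beside 19.2%). H3-3A, one of the genes of the H3 variant made outside S phase, had WT folds of 14.7 and 12.8, V2084D folds of 8.74 and 9.18, and knockdown folds of 10.5 and 8.17. H2AX, the variant phosphorylated at DNA breaks, had 6.23 and 6.90 in WT, 4.18 in V2084D replicate 1, and 3.72 and 4.18 with knockdown. H2AJ had no peak in any list.

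Of 24 genes for transcription of histone genes and processing of their mRNA, 23 had a peak in both WT lists (95.8%), 9 in both V2084D lists (37.5%) and 8 in both knockdown lists (33.3%), beside the same 59.7%, 18.6% and 19.2% of all genes. NELFB, a subunit of the negative elongation factor, had WT folds of 14.6 and 11.5, V2084D folds of 11.2 and 11.8, and knockdown folds of 7.24 and 12. SLBP, the protein that binds the stem-loop of histone mRNA, had WT folds of 8.63 and 10.4, V2084D folds of 5.44 and 5.74, and knockdown folds of 7.33 and 5.06. POU2F1, the factor of the octamer, had 9.34 and 7.94, then 5.89 and 3.94, and then 6.01 and 4.64. COIL, the gene of coilin, had 5.25 and 6.69 in WT, 3.05 in V2084D replicate 2, and 3.54 and 4.11 with knockdown. NELFE had no peak in any list.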

How the data were processed

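Flag ChIP-seq was measured in 6 libraries, while the 2 WT input libraries were not used here. Per the submitters' processing notes the authors used MACS2, Bowtie2, Trimmomatic, Picard, SAMtools, deepTools and bedtools with hg38; for versions, settings and the control of the peak calls, not given in the sources used here. The authors deposited 1 list per library, as the peak names show, with a fold enrichment (ratio) and −log10 p and −log10 q values for each peak, and summit offsets, a further deposited column. Depth is unknown, and the number of peaks depends on depth and yield as well as on binding.

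Gene positions and starts came from RefSeq tables of GRCh38.p14. Peaks on alternate contigs were assigned to no gene. Overlaps were computed in Python 3.11.15 with pandas 2.3.3 and numpy 2.4.6, and the code was tested on simulated data. Groups were compared by two-sided exact permutation tests over libraries, with Benjamini-Hochberg adjustment over the 3 pairs of groups. WT strength used 10 bins of equal size. Named were members with a peak in all 6 lists, the strongest in WT per type, up to 5 of the strongest without a mutant peak, those with a peak in 1 mutant group alone, those outside the large clusters, and up to 4 per related list. Others were named after their values were seen, among them members without peaks and H4C1, H4C4, H4C5 and H4C8. Alternatives were distances of 0 bp and 5 kb, −log10 q of at least 5, fold of at least 5, lists of 6000 peaks, chromosome 6 alone, 50% overlap, summits within 200 bp, each library left out and the replicate block. Distance to start sites (also for single members) and leaving out near-identical copies were added after seeing the data. The members and lists were chosen with earlier results of these data known.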

Additional observations from a re-analysis of the deposited data

How the results depend on the processing

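The fall in members with a peak from WT to either mutant group kept its direction in all alternatives, from -26 to -8 for V2084D and from -24 to -8.5 with knockdown. Its p could not fall below 0.333, and no value over all protein-coding genes stands beside these alternatives. The other differences were less stable. With lists of 6000 peaks the differences in peak share were -0.0917 (V2084D less WT) and -0.0583 (knockdown less WT), that in members between the mutant groups -0.5, and that in coverage -3.33. With a fold of at least 5 the values between the mutant groups were -0.0317 for peak share, -1.5 for members and -2.94 for coverage, and with −log10 q of at least 5 coverage was 0. The peak share of V2084D less WT was -0.0259 with chromosome 6 members and -0.00339 without the copies. With a library left out, members between the mutant groups ran from -2.5 to 8.5 and coverage from -7.58 to 16.7.

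The excess in coverage over other WT regions moved beyond 1 SD of the libraries in several settings. For V2084D it was 6.44 with lists of 6000 peaks, 0.856 with chromosome 6 members, 1.12 with 50% overlap and 4.15 without the copies. With knockdown it was -0.511 with 6000 peaks, 6.39 with 50% overlap, 2.94 with −log10 q of at least 5, 3.33 with a fold of at least 5, 10.6 with summits within 200 bp and 10.1 without the copies. At equal WT strength V2084D gave 1.29 with 6000 peaks, -10.6 with chromosome 6 members, -7.78 with 50% overlap, 1.05 with −log10 q of at least 5, 1.42 with a fold of at least 5 and -7.13 without the copies, and from -4.23 to 0.77 with a library left out. With knockdown it gave -5.56 with 6000 peaks, -3.69 with 50% overlap, -5.78 with −log10 q of at least 5, -6.35 with a fold of at least 5, -2.17 (summits within 200 bp) and -2.00 (without the copies), and from -0.15 to 3.68 with a library left out. With a library left out, the excess ran from 8.69 to 13.8 for V2084D and from 14 to 19.1 with knockdown, and the peak share differences from 0.0239 to 0.0801 (V2084D less WT), 0.1 to 0.133 (knockdown less WT) and 0.0367 to 0.0929 (knockdown less V2084D). The causes were not tested. The replicate numbers name libraries only. Deviations within groups over 20037 genes correlated at 7.03e-06, 0.0137 and -0.0597 between groups, and the replicate block left the differences as they were (-20.5 members for V2084D less WT), with an exact sign-flip p no smaller than 0.5.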

Other observations

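Histone chaperones, which carry histones to and from DNA, were looked at as a further group. Of 16 genes, 14 had a peak within 1 kb in both WT lists (87.5%), 4 in both V2084D lists (25%) and 9 in both knockdown lists (56.25%), beside 59.7%, 18.6% and 19.2% of all protein-coding genes. RBBP4, a subunit of the chaperone complex CAF-1, had WT folds of 7.36 and 9.86, V2084D folds of 6.70 and 5.50, and STUB1 knockdown folds of 7.45 and 7.41. ASF1B, a chaperone of H3 and H4, had WT folds of 11.6 and 9.5, V2084D folds of 6.31 and 3.31, and knockdown folds of 7.36 and 7.12. HIRA, which places the replication-independent H3 variant, had 5.56 and 5.89, then 5.21 and 3.47, and then 7.92 and 2.44. SUPT16H, a subunit of the FACT complex, had 7.62 and 6.27 in WT, 3.28 in V2084D replicate 2, and 3.72 in both knockdown lists. DAXX and ATRX, partners in placing the same variant, had no peak in any list. The difference between both mutant groups in this list was not tested.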
